A study of Mus musculus with 11 samples.

Results

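p53 is a transcription factor that binds a paired sequence element near its target genes and raises their transcription. The products of these genes stop the cell cycle, start apoptosis, repair DNA, restrain growth and feed back on p53 itself. In hematopoietic stem and progenitor cells (HSPCs), p53 is known for keeping stem cells quiescent and for removing cells with damaged DNA. Described here are 40 established direct p53 targets, chosen by name, other than Cdkn1a, Mdm2, Ccng1, Ppm1d and the genes of the BCL2 family. The table of counts held a row for 37 of them among its 12647 genes, and all 37 entered the tests. Eda2r, Cd80 and Sp5 had no row and were not analysed here.

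Expression was measured by RNA-seq in LSKs, the Lin-Sca1+Kit+ bone marrow cells that include hematopoietic stem cells (HSCs) and multipotent progenitors. There were 3 libraries for each of 3 genotypes, p53+/+, p53R248W/+ and p53-/-. The p53+/+ mice carried a humanized p53 knock-in allele (HUPKI), and the R248W mutation had been placed in that allele and was heterozygous in p53R248W/+ mice. The methods put the HUPKI and mutant mice on a C57BL/6 background after 12 generations of backcrossing, and give young mice as 8 to 12 weeks old, tumor free. The p53-/- mice are not described as carrying the HUPKI allele, so loss of p53 and absence of the humanized allele cannot be told apart in a comparison with p53+/+. The labels do not say which libraries came from separate mice, so p-values measure the spread between these libraries, which may be technical. LSKs are a mixture, so a change in the share of a cell type and a change in RNA per cell cannot be told apart.

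Library totals were 18021375 to 29750702 counts, with a median of 20116602. Kit, Cd34, and Ly6a, which encodes Sca1, were read in every library, at no less than 149 CPM (counts scaled to library size with TMM factors) for any of them. Trp53 had reads throughout, 125, 207 and 376 CPM in p53+/+, 219, 240 and 235 in p53R248W/+ and 129, 127 and 112 in p53-/- LSKs. Because the part missing from the p53-/- allele and the handling of reads from the human exons were not given in the sources used here, the Trp53 count checks neither label. Libraries stood apart in other ways. The sum of 4 Y-linked genes was 69.8 to 184 CPM in p53+/+ replicate 2 and p53R248W/+ replicates 2 and 3, and at most 0.216 CPM in the other 6 libraries, among them all p53-/- libraries. Only p53-/- replicate 1 had a sum of 0, but all 6 are called libraries with no Y-linked counts below. The log2 ratio of long to short genes ran from -0.69 in p53R248W/+ replicate 1 to 0.51 in p53+/+ replicate 2. Summed markers of granulocytes and monocytes were 2120 to 2600 CPM in p53-/-, 2960 to 7100 in p53+/+ and 4370 to 9100 in p53R248W/+ LSKs, with 10 of 10 genes lower in p53-/- than in p53+/+, none at 0 in any library and none past the threshold. Of 10 markers of LSKs and their subsets, 6 were higher and 4 lower in p53-/-, and 2 passed, Hlf, a transcription factor gene of HSCs, at a log2 fold change of 1.14 (adjusted p = 0.0242) and Ptprc, which encodes CD45, at -0.93 (adjusted p = 0.0348, edgeR). The HSC markers Procr and Meis1 had 1.17 and 0.63 (adjusted p = 0.0619 and 0.0552, edgeR), above p53+/+ without overlap. Slamf1, which encodes the long-term HSC marker CD150, went the other way, at -0.81 with overlapping libraries (adjusted p = 0.252, edgeR). The summed LSK markers were 4390 to 4930 CPM in p53-/- and 3800 to 4770 CPM in p53+/+ libraries. Summed T and NK lymphoid markers were 283 to 358 CPM in p53-/-, 441 to 508 in p53+/+ and 461 to 580 in p53R248W/+ libraries, with 5 of 7 genes lower in p53-/- than in p53+/+ and Lck, a T cell kinase gene, past the threshold (log2 fold change -0.77, adjusted p = 0.0490, edgeR). Of these 7, Cd8a was at 0 in 1 p53+/+ and 1 p53-/- library. Summed megakaryocyte markers were 123 to 140 CPM in p53-/- and 142 to 195 CPM in p53+/+ libraries, with 0 of 6 past the threshold, and the erythroid and B lymphoid sums overlapped. Over all genes tested in p53-/- against p53+/+, 3.5% passed the threshold and 50.1% had a negative log2 fold change. The part of these lists in the results that follow was not tested.

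The p53 element consists of 2 decamers, each with 3 purines, a core of C, A or T, A or T and G, and 3 pyrimidines. It was searched on GRCm38.p6 with no spacer, up to 2 mismatches and an intact C and G in each core. The element is its own reverse complement, so a search of the reference strand covers both strands. Start sites of 30 of the 37 genes were taken from the RefSeq promoter table, which had no entry for Perp, Ddb2, Zmat3, Trp53inp1, Tnfrsf10b, Xpc and Rrm2b. Within 2500 bases of a start, 9 of these 30 genes (30.0%) had a match, against 613 of 9941 tested genes (6.17%). With at most 1 mismatch it was 3 of 30 genes, against 96 of 9941 (0.966%). In the window from 250 bases before to 50 after a start, with up to 2 mismatches, 3 of 30 genes had a match, against 43 of 9941 (0.433%). These were Rps27l, Gtse1 and Zfp365. These genes were chosen as known p53 targets, and a match is a resemblance in letters, not a binding site.

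The elements below are printed from GRCm38.p6 on the strand of their gene, plus for all but Pidd1, which lies on the minus strand, with 20 bases on each side and the element in capitals. Cdkn1a (p21), the classical p53 target, is shown for reference at chr17:29090908-29090967, where the centre of the element lies 42 bases before the nearest listed start, with 1 mismatch. Rps27l (chr9:66946276-66946335), Gtse1 (chr15:85859925-85859984) and Psrc1 (chr3:108384636-108384695) are the members with 1 mismatch. Pidd1 is shown because it fell in p53-/- LSKs (below), and it has 2 matches side by side, at chr7:141443306-141443365 and chr7:141443283-141443342, with 2 mismatches each.
Cdkn1a: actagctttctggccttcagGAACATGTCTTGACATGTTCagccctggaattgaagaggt
Rps27l: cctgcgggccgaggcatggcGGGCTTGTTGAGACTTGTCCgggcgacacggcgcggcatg
Gtse1: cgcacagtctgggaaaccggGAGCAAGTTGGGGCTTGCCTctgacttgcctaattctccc
Psrc1: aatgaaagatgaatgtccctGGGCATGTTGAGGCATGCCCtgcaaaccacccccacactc
Pidd1, nearer to the listed start: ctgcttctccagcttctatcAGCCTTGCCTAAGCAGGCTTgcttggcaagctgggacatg
Pidd1, farther from the listed start: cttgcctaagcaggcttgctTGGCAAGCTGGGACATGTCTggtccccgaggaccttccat

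Distances are to the nearest start listed in the promoter table, which need not be the outer 5′ end of the annotated locus. The centre of the Rps27l element lay 108 bases before a listed start that is itself 1789 bases inside the locus, so the element is 1681 bases inside it. The Gtse1 element lay 8 bases after a listed start and 263 bases inside the locus, and the Psrc1 element 827 bases after a listed start and 861 bases inside. The Pidd1 elements lay 690 and 713 bases after the listed start and 4230 and 4253 bases inside the locus. Matches with 2 mismatches were also found for Bcl6, Fas, Fbxw7, Plk2 and Zfp365. No match within these windows was found for Ercc5, Phlda3, Sesn1, Ak1 or Ephx1, which are described below.

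**Figure D1:**
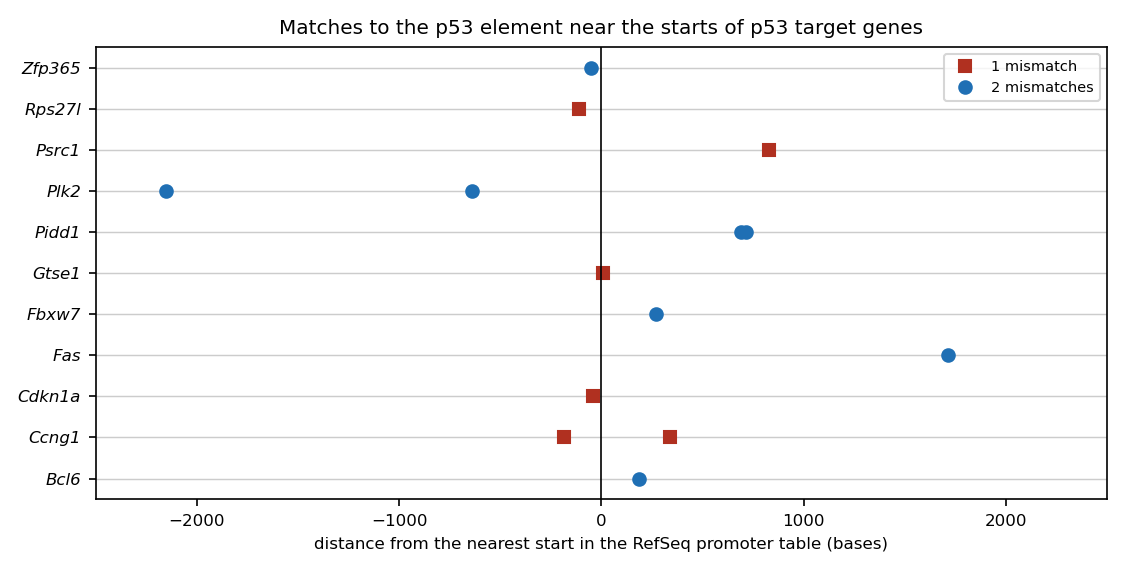
Matches to the p53 element near the starts of 9 target genes, with Cdkn1a and Ccng1 for reference. The horizontal axis gives the distance of the element's centre from the nearest start in the RefSeq promoter table in bases, squares mark 1 mismatch and circles 2 mismatches. The Rps27l, Gtse1 and Zfp365 matches lie at -108, 8 and -53 bases, and the Plk2 matches at -2153 and -641 bases.

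Levels per gene length (RPKM) spread widely among these genes. In p53+/+ LSKs the highest was Gpx1, a glutathione peroxidase that removes peroxides, at 2579 RPKM. Next were Rps27l, a ribosomal protein-like gene, at 578 RPKM, and Sesn1, a sestrin that restrains mTORC1, at 68.8 RPKM. The lowest were Zfp365 at 0.258 RPKM and Zmat3, an RNA-binding zinc finger gene, at 0.227 RPKM. The median of the 37 genes was 5.62 RPKM, against 11.2 RPKM over all genes tested. Of the 37, 12 were above 10 RPKM and 4 were under 1 RPKM. Rps27l closely resembles Rps27, and how the counting assigned reads shared between such copies is not given in the sources used here. Of the 37 loci, 14 overlap another annotated gene and 7 of them a protein-coding gene on the opposite strand. These 7 are Apaf1, Cdip1, Dram1, Ddb2, Plk3, Pltp and Dgka. Whether strand was used in counting is also not given.

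**Figure D2:**
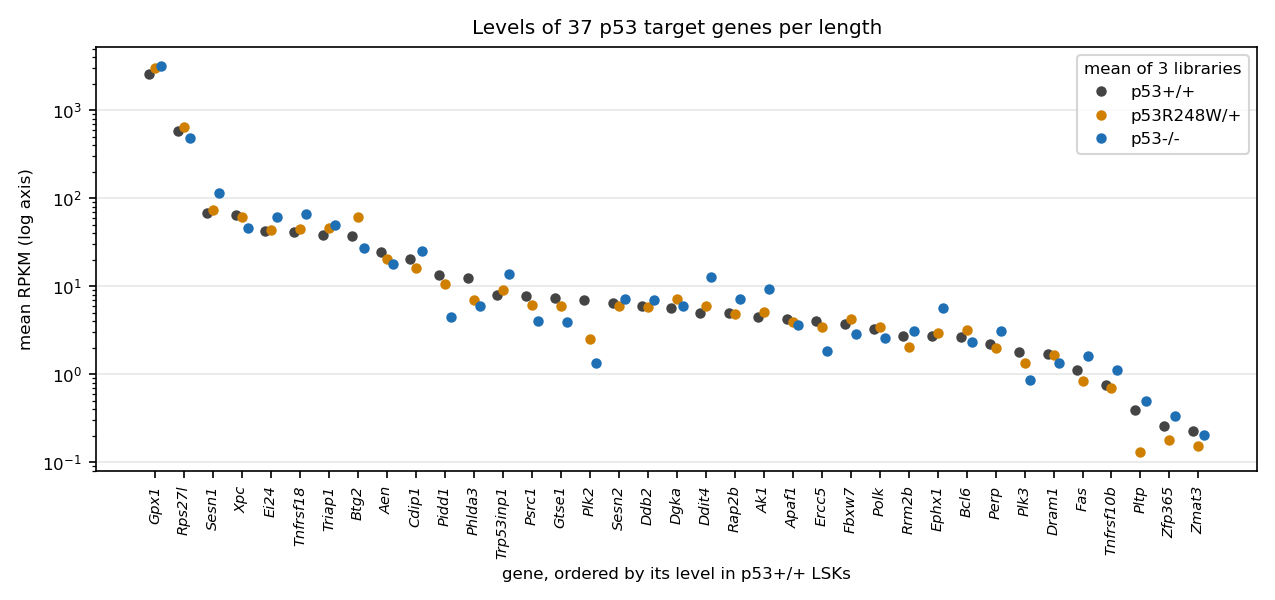
Mean RPKM of the 37 target genes in each genotype, on a log axis, ordered by the level in p53+/+ LSKs. Each point is the mean of 3 libraries. Levels run from 2579 RPKM for Gpx1 to 0.227 RPKM for Zmat3 in p53+/+ LSKs. Points of a gene at different heights, such as those of Plk2 and Ephx1, mark different means. Neither of these 2 genes passed the threshold, and the p53+/+ mean of Plk2 rests on replicate 1.

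The comparison of p53-/- with p53+/+ LSKs asks which of these genes depend on p53 in unstressed progenitors. In p53-/- LSKs, Pidd1 and Ercc5 fell and Sesn1 and Ak1 rose, so 4 of the 37 genes (10.8%) had an adjusted p below 0.05 in edgeR's quasi-likelihood test, against 3.5% of all 12625 genes tested. The directions were split evenly, with 2 genes lower and 2 higher, where all genes tested gave 2.25% lower and 1.25% higher. All p53-/- libraries lay outside the range of the p53+/+ libraries for 14 genes (37.8%), against 31.4% of all genes. Of these 14, 8 were above and 6 below, where all genes gave 15.4% and 16%. At an unadjusted p below 0.05 there were 15 genes, 8 higher and 7 lower (40.5%, against 23.4% of all genes, 10.9% and 12.5% by direction). The median log2 fold change of the 37 genes was 0.16, beside a median of -0.0013 over all genes tested. It was negative for 17 of the 37 genes and for 50.1% of all genes tested.

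Pidd1 encodes the death domain protein of the PIDDosome, a platform that activates caspase-2. It lies on chromosome 7 from 141438113 to 141447565 on the minus strand of GRCm38.p6. Pidd1 was at 28.3, 40.6 and 49.1 CPM in p53+/+ libraries, 15.1, 37.4 and 41.1 CPM in p53R248W/+ libraries and 13.1, 9.80 and 16.4 CPM in p53-/- libraries. All 3 p53-/- libraries were below all p53+/+ libraries, and p53R248W/+ replicate 1 was among the p53-/- values. In p53-/- LSKs Pidd1 averaged 13.1 ± 3.30 CPM (SD, n = 3) against 39.3 ± 10.5 CPM (SD, n = 3) in p53+/+ LSKs. The log2 fold change of Pidd1 was -1.59 (standard error 0.36, adjusted p = 0.0377, edgeR).

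Ercc5 encodes XPG, the endonuclease that cuts on the 3′ side of a lesion in nucleotide excision repair. It lies on chromosome 1 from 44146948 to 44181260 on the plus strand. Ercc5 was at 15.6, 18.9 and 14.3 CPM in p53+/+, 10.6, 14.7 and 16.5 CPM in p53R248W/+ and 8.98, 7.23 and 5.84 CPM in p53-/- libraries. The p53-/- libraries were the lowest of all 9, and the other genotypes overlapped. Mean expression of Ercc5 was 7.35 ± 1.57 CPM in p53-/- LSKs, beside 16.3 ± 2.39 CPM in p53+/+ LSKs (SD, n = 3 each), and the log2 fold change was -1.15 ± 0.27 (standard error) with an adjusted p of 0.0400 in edgeR.

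Sesn1, which dampens mTORC1 signalling when amino acids are scarce, lies on chromosome 10 from 41810574 to 41908436 on the plus strand. Sesn1 was at 256, 238 and 195 CPM in p53+/+, 247, 240 and 254 CPM in p53R248W/+ and 417, 336 and 410 CPM in p53-/- libraries. Every p53-/- library was above the 6 others, and the p53R248W/+ libraries lay within the range of p53+/+. Its mean was 388 ± 44.6 CPM in p53-/- LSKs, beside 230 ± 31.6 CPM in p53+/+ LSKs (SD, n = 3 each), and the log2 fold change was 0.76 ± 0.16 (standard error) with an adjusted p of 0.0332 in edgeR.

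Ak1, adenylate kinase 1, balances the adenine nucleotides and lies on chromosome 2 from 32621758 to 32635058 on the plus strand. Ak1 was at 13.2, 10.2 and 8.31 CPM in p53+/+, 14.6, 9.77 and 11.7 CPM in p53R248W/+ and 24.2, 18.7 and 23.5 CPM in p53-/- libraries. All 3 p53-/- libraries were above the 6 others. Its mean was 22.1 ± 2.96 CPM in p53-/- LSKs, beside 10.6 ± 2.44 CPM in p53+/+ LSKs (SD, n = 3 each), and the log2 fold change was 1.07 ± 0.25 (standard error) with an adjusted p of 0.0442 in edgeR.

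The adjusted p of these 4 genes was close to the threshold, and the call depended on single libraries while the direction did not. Leaving out p53+/+ replicate 2 or 3, or any of the 3 p53-/- libraries, left 0 of the 37 genes past the threshold. In these fits 0.293% to 0.815% of all genes passed, so calls were lost over all genes as well. Adjusted p for these 4 genes was up to 0.177 (Ak1, without p53+/+ replicate 3). Without p53R248W/+ replicate 1, the library with the lowest ratio of long to short genes, 8 genes passed, among them all 4 (21.6%, against 11.7% of all genes in that fit). Without p53R248W/+ replicate 2 only Pidd1 passed (2.7%, against 2.2% of all genes), and without replicate 3 Pidd1 and Sesn1 (5.41%, against 2.33%). Without p53+/+ replicate 1, Ak1, Pidd1, Sesn1 and Trp53inp1 passed (10.8%, against 3.95% of all genes). In the 6 libraries with no Y-linked counts, a fit chosen after seeing the data, the log2 fold changes of p53-/- against p53+/+ were -1.56 for Pidd1 (adjusted p = 0.0265), -1.02 for Ercc5 (adjusted p = 0.114), 0.78 for Sesn1 (adjusted p = 0.0685) and 1.04 for Ak1 (adjusted p = 0.0958, edgeR). DESeq2 called 11 of the 36 genes to which it gave an adjusted p (30.6%, against 12.6% of all genes), and limma-voom only Sesn1 (2.7%, against 2.35%).

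**Figure D3:**
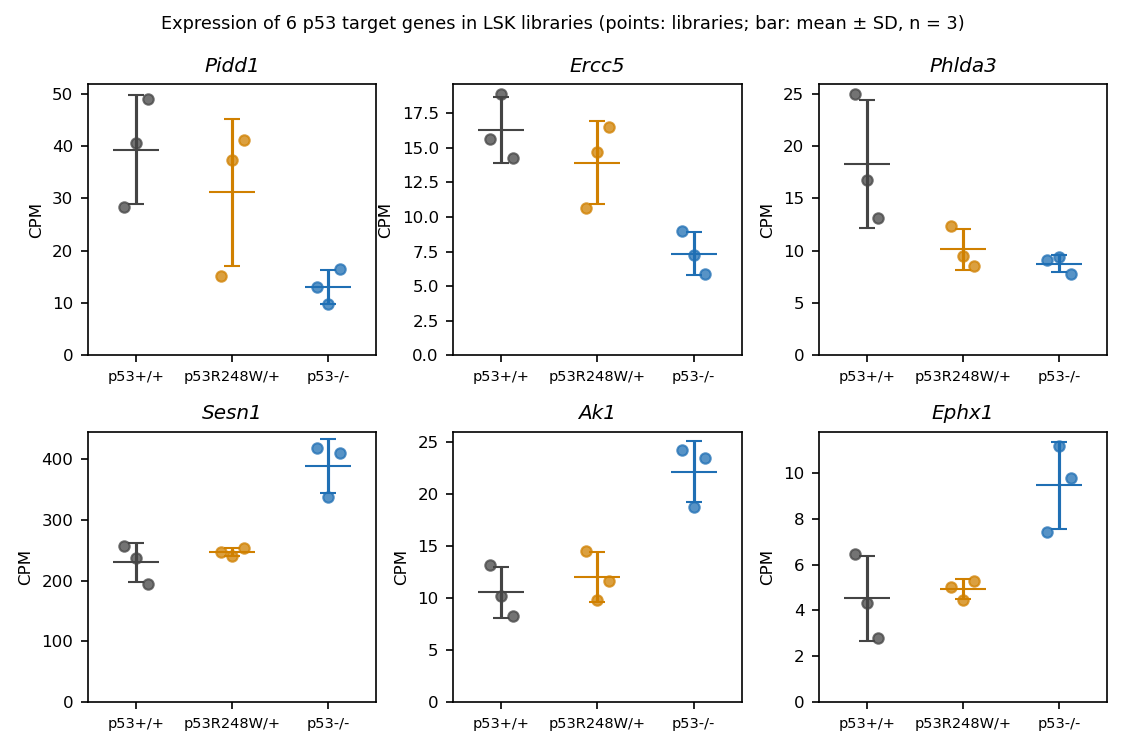
CPM of Pidd1, Ercc5, Phlda3, Sesn1, Ak1 and Ephx1 in each library, by genotype, with axes from 0. Points are the 3 libraries, and bars give the mean ± SD. The p53-/- libraries lie below all p53+/+ libraries for Pidd1, Ercc5 and Phlda3 and above them for Sesn1, Ak1 and Ephx1, while the p53R248W/+ libraries lie below all p53+/+ libraries for Phlda3 alone.

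Phlda3 and Ephx1 did not pass the threshold, but their p53-/- and p53+/+ libraries did not overlap and the log2 fold change was over 1 in size. Phlda3, a PH domain protein that restrains Akt, lies on chromosome 1 from 135766085 to 135769134 on the plus strand. Phlda3 was at 25.0, 16.7 and 13.2 CPM in p53+/+, 12.3, 9.53 and 8.55 CPM in p53R248W/+ and 9.14, 9.35 and 7.81 CPM in p53-/- libraries. Both other genotypes lay below all p53+/+ libraries and overlapped each other. The log2 fold change of Phlda3 was -1.06 in p53-/- (standard error 0.28, adjusted p = 0.0571) and -0.85 in p53R248W/+ LSKs (standard error 0.28, adjusted p = 1.0, edgeR). Ephx1, an epoxide hydrolase that detoxifies epoxides, lies on chromosome 1 from 180989556 to 181017569 on the minus strand. Ephx1 was at 6.45, 4.33 and 2.79 CPM in p53+/+, 5.03, 4.48 and 5.30 CPM in p53R248W/+ and 7.40, 11.2 and 9.77 CPM in p53-/- libraries. The p53-/- libraries were the highest, with a log2 fold change of Ephx1 of 1.06 against p53+/+ (standard error 0.34, adjusted p = 0.0952, edgeR). Phlda3 passed the threshold in 5 of 19 alternatives for p53-/- against p53+/+ and Ephx1 in 1 of 19.

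By role, the genes of apoptosis and death receptor signalling did not move together in p53-/- LSKs. Of 8 measured, 3 had negative and 5 positive log2 fold changes, and Pidd1 alone passed. Ei24, an endoplasmic reticulum protein of apoptosis and autophagy, averaged 142 ± 16.9 CPM (SD, n = 3) in p53-/- against 96.2 ± 7.02 CPM (SD, n = 3) in p53+/+ LSKs, without overlap (log2 fold change 0.56, adjusted p = 0.0635, edgeR). Perp, a desmosomal membrane protein linked to apoptosis, also had no overlap (log2 fold change 0.49, adjusted p = 0.404, edgeR). The death receptor genes Fas and Tnfrsf10b had log2 fold changes of 0.53 and 0.57 with standard errors of 0.60 and 0.53, from levels of 1.13 and 0.762 RPKM in p53+/+ LSKs. Apaf1, the scaffold of the apoptosome, had -0.24, the exonuclease gene Aen -0.43 and Cdip1 0.28, none of them past the threshold.

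Among 7 genes of DNA repair and nucleotide supply, 4 had negative log2 fold changes in p53-/- LSKs. Ercc5 alone passed. Xpc, which recognises lesions at the start of nucleotide excision repair, was at 168 ± 10.8 CPM in p53-/- LSKs, beside 232 ± 33.8 CPM in p53+/+ LSKs (SD, n = 3 each), without overlap (log2 fold change -0.47, adjusted p = 0.195, edgeR). Ddb2, the other lesion sensor of that pathway, had a log2 fold change of 0.24 and overlapped. Rrm2b, a ribonucleotide reductase subunit, had 0.20, Polk, a translesion polymerase, -0.32, Rps27l -0.26 and Zfp365 0.38, all with overlapping libraries.

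Of 5 genes of growth, nutrient and redox restraint, Phlda3 had a negative log2 fold change and Sesn1, Sesn2, Ddit4 and Gpx1 positive ones in p53-/- LSKs. Sesn2, the paralog of Sesn1, had a log2 fold change of 0.16 with a standard error of 0.22 and overlapping libraries. Ddit4, an mTORC1 inhibitor induced by stress, had the highest log2 fold change of the 37 genes, 1.33, with a standard error of 0.58 and overlapping libraries (adjusted p = 0.196, edgeR). Gpx1 had a log2 fold change of 0.29 and overlapped.

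Of 7 genes of cell cycle control, 6 had negative log2 fold changes in p53-/- LSKs and none passed the threshold (lowest adjusted p = 0.0633, edgeR). The median of the 7 was -0.90. Gtse1 and Psrc1, which act on the mitotic spindle and microtubules, lay below p53+/+ without overlap, with log2 fold changes of -0.90 and -0.93. The genes of the polo-like kinases Plk2 and Plk3 had -2.39 and -1.03, and overlapped. Plk2, singled out here after its values were seen, was at 42.7, 11.2 and 5.35 CPM in p53+/+, 8.55, 5.34 and 7.36 CPM in p53R248W/+ and 5.98, 1.85 and 3.54 CPM in p53-/- libraries. A single library, p53+/+ replicate 1, stood far above the other 8, and without it the log2 fold change of Plk2 in p53-/- against p53+/+ was -1.13. Btg2, an antiproliferative cofactor, had -0.47, Fbxw7, which marks cyclin E for degradation, -0.39 and Triap1 0.39.

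The cell cycle values stood beside lower levels of genes that no p53 list had supplied. Of 16 genes of G2 and mitosis, 16 were lower in p53-/- than in p53+/+ LSKs, as were 50.1% of all genes tested. Past the threshold were 4 (25.0%, against 3.5% of all genes), Mki67, Top2a, Cenpf and Kif11, with log2 fold changes of -2.34, -1.64, -2.89 and -1.62. These 4 are also the longest of the 16, at 10075, 5217, 11122 and 4819 bases. Over all genes tested, the median log2 fold change was -0.16 from 4757 bases upward and 0.065 up to 1597 bases. The part of gene length in these calls was not tested. The summed level of the 16 was 677 to 1430 CPM in p53-/- and 1700 to 1950 CPM in p53+/+ libraries. Gtse1 and Psrc1 are themselves expressed mainly in dividing cells. Of 18 immediate early and heat shock genes, which respond within minutes to handling and stress, 16 were lower and 5 passed. These 5 were Fos, Jun, Zfp36, Hspa1a and Hsp90aa1, all lower (27.8%, against 3.5% of all genes passing and 2.25% passing and lower). The sum of these 18 was 2980 to 4770 CPM in p53-/- and 4990 to 7850 CPM in p53+/+ libraries. Plk2, Plk3 and Btg2 are known to be early response genes as well. The part of either list in the values of the p53 targets was not tested.

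Trp53inp1, a cofactor that links p53 to apoptosis and autophagy, was at 74.5 ± 9.37 CPM in p53-/- LSKs, beside 43.8 ± 15.8 CPM in p53+/+ LSKs (SD, n = 3 each), without overlap (log2 fold change 0.77, adjusted p = 0.0921, edgeR). The autophagy gene Dram1 and Zmat3 had -0.34 and -0.13 and overlapped. All 5 genes of metabolism, lipid and small GTPase signalling had positive log2 fold changes in p53-/- LSKs. Besides Ak1 and Ephx1, Rap2b, a Ras-related GTPase, lay above p53+/+ without overlap (log2 fold change 0.54, adjusted p = 0.153, edgeR). Dgka, a diacylglycerol kinase, had 0.10 (standard error 0.26) and the lipid transfer gene Pltp 0.33 (standard error 1.26) at 0.392 RPKM. Tnfrsf18, the GITR receptor of lymphocytes, was at 67.1 ± 10.4 CPM in p53-/- LSKs, beside 41.2 ± 6.49 CPM in p53+/+ LSKs (SD, n = 3 each), without overlap (log2 fold change 0.70, adjusted p = 0.0824, edgeR). Bcl6, a transcriptional repressor, had -0.17.

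**Figure D4:**
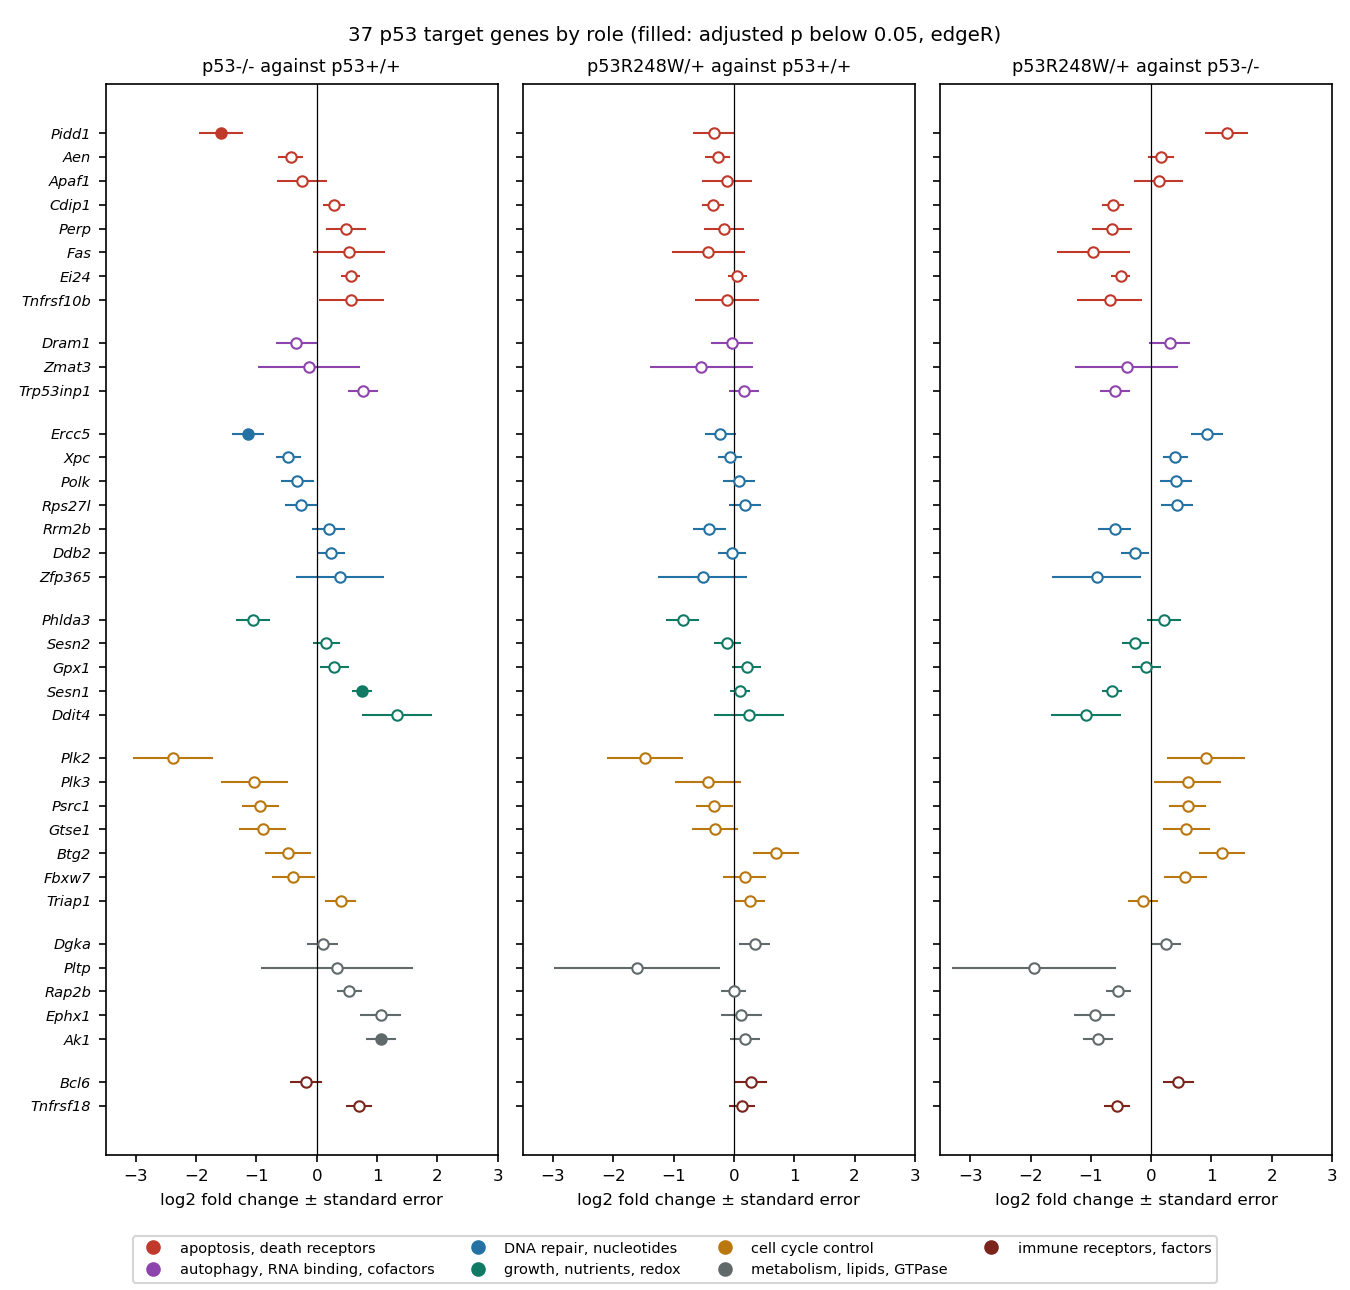
Log2 fold changes of the 37 target genes with their standard errors, grouped and coloured by role, in each of the 3 comparisons. Filled points have an adjusted p below 0.05, and only Pidd1, Ercc5, Sesn1 and Ak1 in p53-/- against p53+/+ are filled. In that comparison 6 of 7 cell cycle genes lie left of 0 and 5 of 5 metabolism genes right of it, where 50.1% of all genes tested had a negative log2 fold change. Among the 5, Dgka (0.10, standard error 0.26) and Pltp (0.33, standard error 1.26) changed sign in some alternatives.

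In p53R248W/+ against p53+/+ LSKs, which asks whether the heterozygous mutant alters the same targets, 0 of the 37 genes passed the threshold, against 0.00792% (1 gene) of all genes tested. DESeq2 and limma-voom also called 0 of the 37. At an unadjusted p below 0.05 there were 2 genes, Phlda3 and Plk2, both lower (5.41%, against 0.958% of all genes tested, 0.483% lower and 0.475% higher). The p53R248W/+ libraries were all below the p53+/+ libraries for 3 genes, Phlda3, Cdip1 and Rrm2b, and above them for none (8.11%, against 5.04% of all genes, 2.38% below and 2.66% above). The median log2 fold change was -0.067, beside 0.012 over all genes tested, and it was negative for 22 genes (59.5%, against 47.5% of all genes). The log2 fold changes of Pidd1, Ercc5, Sesn1 and Ak1 were -0.33, -0.22, 0.10 and 0.18, with standard errors of 0.35, 0.26, 0.16 and 0.25.

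Cdip1, which promotes apoptosis, was at 63.2 ± 10.5 CPM in p53R248W/+ LSKs, beside 80.1 ± 5.72 CPM in p53+/+ LSKs (SD, n = 3 each), and the log2 fold change was -0.34. Its locus overlaps the gene Hmox2 on the opposite strand, so without strand-specific counting its count may include Hmox2 reads. Rrm2b was at 9.34 ± 0.716 CPM in p53R248W/+ LSKs, beside 12.4 ± 1.62 CPM in p53+/+ LSKs (SD, n = 3 each), and the log2 fold change was -0.41. The log2 fold change of Plk2 was -1.48 and rested on p53+/+ replicate 1, without which it was -0.22. Btg2, singled out after its values were seen, was at 142, 141 and 63.1 CPM in p53+/+, 279, 93.4 and 188 CPM in p53R248W/+ and 91.9, 94.2 and 62.9 CPM in p53-/- libraries. It had the highest log2 fold change of the 37 genes in p53R248W/+ LSKs, 0.70 (standard error 0.38), and its libraries overlapped. Apart from Phlda3, Plk2, Cdip1, Rrm2b and Btg2, the 32 genes had log2 fold changes between -1.61 (Pltp, with 0 to 30 counts in any of these 6 libraries) and 0.35 (Dgka).

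In p53R248W/+ against p53-/- LSKs, which compares the mutant with the absence of p53 and has the p53-/- libraries in common with the comparison above, 0 of the 37 genes passed the threshold, against 3.44% of all genes tested. Unadjusted, 12 genes had a p below 0.05, 9 lower and 3 higher (32.4%, against 21% of all genes, 9.47% lower and 11.6% higher), and DESeq2 called 7 (18.9%, against 10.5% of all genes). The p53R248W/+ libraries were below all p53-/- libraries for 10 genes and above them for 2, Dram1 and Ercc5 (32.4%, against 24.2% of all genes, 12% below and 12.1% above). The log2 fold change was negative for 20 of the 37 genes and for 48.3% of all genes. The lowest adjusted p was that of Sesn1, 0.0509, with a log2 fold change of -0.65. Pidd1 and Ercc5 were higher in p53R248W/+ by 1.25 and 0.92 on the log2 scale (adjusted p = 0.0723 and 0.0747, edgeR), Ak1 had -0.88 (adjusted p = 0.0747), and Phlda3 0.21 (adjusted p = 0.717, edgeR). Without p53R248W/+ replicate 1, 6 of the 37 genes passed (16.2%, against 12.3% of all genes in that fit), Ak1, Ei24, Ercc5, Pidd1, Sesn1 and Tnfrsf18.

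The other p53 targets give the setting of these values. A second list held 26 targets and related genes, of which 21 were tested, among them the classical targets left out of the 37. In p53-/- against p53+/+ LSKs 1 of these 21 passed (4.76%, against 3.5% of all genes tested), Cdkn1a, the CDK inhibitor p21, and the median log2 fold change was -0.13. Cdkn1a was at 67.0, 44.0 and 43.6 CPM in p53+/+, 52.1, 37.7 and 35.7 CPM in p53R248W/+ and 17.8, 8.27 and 10.9 CPM in p53-/- libraries, with a log2 fold change in p53-/- of -2.07 (standard error 0.30, adjusted p = 0.00914, edgeR). Against p53-/-, Cdkn1a was higher in p53R248W/+ LSKs by 1.76 (standard error 0.30, adjusted p = 0.0126, edgeR). Mdm2, the ligase that degrades p53, was at 78.0 ± 7.32 CPM in p53-/- LSKs, beside 72.2 ± 9.17 CPM in p53+/+ LSKs (SD, n = 3 each), and the log2 fold change was 0.11. Ccng1, cyclin G1, had a log2 fold change of 0.29 and overlapping libraries. Of 11 measured regulators of p53, 0 passed in p53-/- LSKs by edgeR, with 4 at an unadjusted p below 0.05 (36.4%, against 23.4% of all genes). No gene of these lists passed in p53R248W/+ against p53+/+ LSKs.

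**Figure D5:**
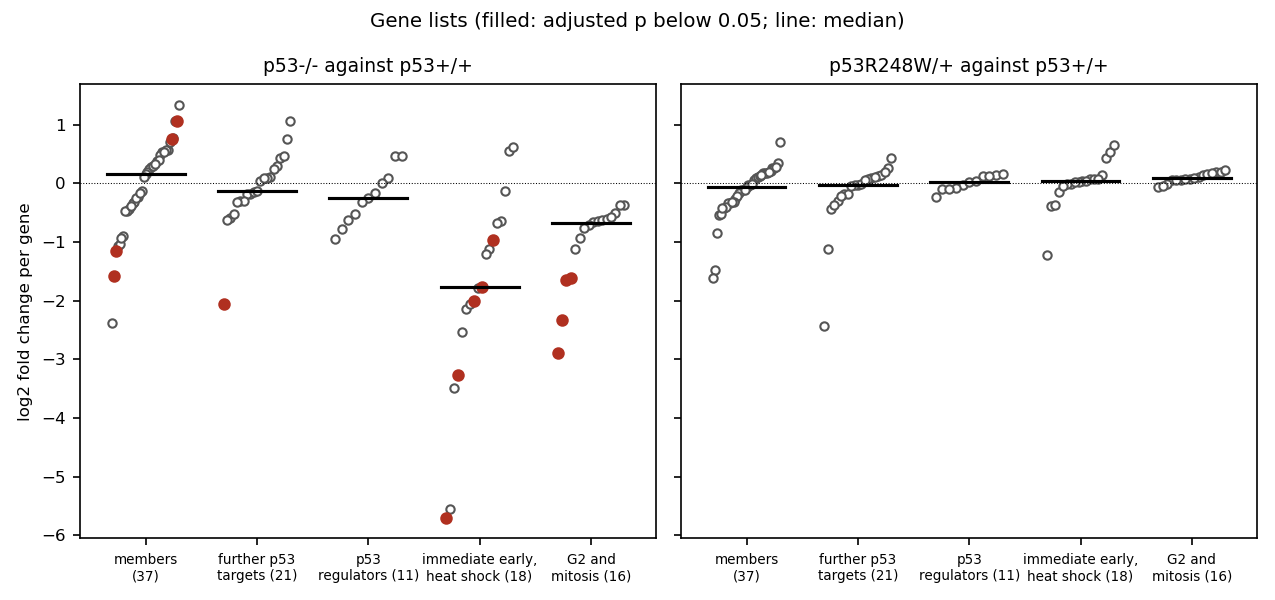
Log2 fold changes per gene for the 37 target genes and the 4 other lists, in p53-/- and in p53R248W/+ against p53+/+ LSKs. Filled points have an adjusted p below 0.05, and the line is the median of each list. In p53-/- LSKs the medians are 0.16 for the 37 genes, -0.13 for the further targets, -0.25 for the regulators, -1.78 for immediate early and heat shock genes and -0.68 for G2 and mitosis genes, while in p53R248W/+ LSKs all 5 lie between -0.067 and 0.088.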

How the data were processed

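The RNA-seq table of 9 LSK libraries was used. The authors deposited whole-number counts of reads per gene, not normalized. Per the labels, processing tools were STAR 2.5.2b, featureCounts (Subread 1.5.0) and edgeR, and the genome build was mm10. The labels name a SMART-Seq kit, and the methods oligo(dT) beads with random hexamers. The table's log2 fold changes and p-values of the authors' own comparisons were not used, and its gene lengths served for RPKM. Every gene in it had at least 37 counts over the 9 libraries. The H3K27me3 ChIP-seq samples were not analysed here.

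Library totals were 18021375 to 29750702 counts, so a gene at 1 CPM rests on few reads. Genes were kept by filterByExpr (12625 genes), scaled by TMM, and tested in 1 quasi-likelihood fit to all 9 libraries with genotype as the only term (edgeR 4.0.16, R 4.3.3), with Benjamini-Hochberg adjustment over all genes tested and a threshold of 0.05. As alternatives served DESeq2 1.42.0, the voom test of limma 3.58.1, other scaling and filters, a replicate block, a fit to the 6 libraries compared, and leaving out each library. The procedure was also run on simulated counts, drawn independently for each library with no shift by gene length, replicate or sex. That run does not cover the differences between libraries described here. Tables and figures used Python 3.11.15.

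The members and gene lists were chosen with earlier results of these data known, so their counts are descriptions. Values per library were given for genes past the threshold, or without overlap and with a log2 fold change of at least 1 in size; the rest were given by role, and any exception is named.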

Additional observations from a re-analysis of the deposited data

How the results depend on the processing

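Signs were followed for 57 log2 fold changes, of all 37 targets in p53-/- against p53+/+ and of selected targets in the other comparisons. Of these 57, 48 had the same sign in each alternative in which they could be fitted (the strict filter removed Zfp365, Pltp and Zmat3). Those of Pidd1, Ercc5, Phlda3, Sesn1, Ak1 and Ephx1 in p53-/- against p53+/+ were among the 48. In p53-/- against p53+/+, edgeR called 4 of the 37 targets, DESeq2 11, limma-voom 1, the fit with the length ratio as a covariate 7 and the 6 libraries with no Y-linked counts 1, and leaving out 1 library gave 0 to 8. The 7 with the length covariate were 18.9% of the targets, against 9.18% of all genes, and the 1 in the 6 libraries 2.7%, against 2.09%. In p53R248W/+ against p53+/+ the count of targets was 0 under all alternatives run. In p53R248W/+ against p53-/- edgeR called 0 and DESeq2 7, and leaving out 1 library gave 0 to 6. DESeq2's size factors gave 1 there (2.7%, against 3.41% of all genes) and the strict filter 1 (2.94%, against 4.15%). The length covariate gave 8 (21.6%, against 11.4%). Over all genes, p53-/- against p53+/+ gave 442 calls, 1552 with DESeq2, 894 in a fit to the 6 libraries, 1159 with the length covariate, 264 in libraries with no Y-linked counts and 37 (p53+/+ replicate 3) to 1485 (p53R248W/+ replicate 1) without 1 library. For p53R248W/+ against p53-/- there were 434, 1325, 208, 1441, 46 and 77 (p53R248W/+ replicate 3) to 1559 (p53R248W/+ replicate 1) calls in the same order. The libraries with no Y-linked counts leave p53R248W/+ with replicate 1 alone, assumed to vary like the others, so its 46 calls and its 0 among the targets rest on that library. For p53R248W/+ against p53+/+ there was 1 call, 6 with DESeq2 and 0 with the strict filter. The length covariate, the libraries with no Y-linked counts and the block in 6 libraries were chosen after seeing the data, and the cause of these shifts was not tested.

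The other 9 fold changes changed sign, and none of them was past the threshold as reported. In p53-/- against p53+/+, log2 fold changes without 1 library ran from -0.61 to 0.051 for Apaf1, -0.0012 to 0.32 for Dgka, -0.50 to 0.00083 for Dram1, -0.026 to 0.43 for Rrm2b, -0.62 to 0.74 for Zfp365, -0.94 to 0.79 for Zmat3 and -0.41 to 1.49 for Pltp. In p53R248W/+ against p53+/+ they ran from -0.13 to 0.47 for Ephx1 and -0.0029 to 0.19 for Sesn1. Apaf1 had 0.055 with the length covariate and 0.026 in libraries with no Y-linked counts, Dram1 0.00044 in the latter, and Pltp -0.82 with limma-voom.

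No label states a pairing of libraries, but the p53+/+ and p53R248W/+ labels of replicates 1 and 2 share a stem. Deviations of same-numbered p53+/+ and p53R248W/+ libraries correlated at 0.36, 0.54 and 0.039, and other same-numbered pairs at -0.11 to 0.13. Crossed, p53+/+ replicate 1 with p53R248W/+ replicate 2 gave -0.476, and p53+/+ replicate 2 with p53R248W/+ replicate 1 gave -0.385. The remaining crossed pairs of these genotypes gave -0.0518 to 0.00934. Deviations were taken from each genotype's own mean, so the crossed values depend on the same-numbered ones and are no separate evidence of pairing. Whether same-numbered libraries were prepared together was not tested. With the replicate block the calls over all genes were 882 for p53-/- against p53+/+, 672 for p53R248W/+ against p53-/- and 2 for p53R248W/+ against p53+/+. Among the 37 targets the block gave 6, 1 (Pidd1) and 0 calls. The 6 were 16.2%, against 6.99% of all genes, and the 1 was 2.7%, against 5.32%.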
